A study of Drosophila melanogaster with 4 samples.

Results

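Close pairs of alternative 5′ splice sites are places where an exon can end at either of 2 positions that lie at most 100 bases apart, before joining the same downstream exon. Of 3120 alternative 5′ splice site events with values in every library, 1461 met this distance and 1659 had sites farther apart. The rule used only the positions of the sites, not their use. RNA came from whole Drosophila melanogaster larvae, with 2 libraries of Smn mutants (strain label SmnX7/D) and 2 of the wild type strain Oregon R. All larvae were collected 74 ± 2 h after egg laying at 24 ± 1 °C, and polyadenylated RNA was sequenced as read pairs. Smn encodes the survival motor neuron protein, a core factor in the assembly of spliceosomal snRNPs. Genotype and strain differ together between the groups and cannot be told apart, and the labels do not say whether the libraries of a group came from separate cultures, so the spread between them may be technical. None of the events was matched to Smn itself (0), so the mutation was not checked with these events.

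The 5′ splice site is the boundary between an exon and the start of an intron. It is first recognised by base pairing with U1 snRNA, which covers the last bases of the exon and the first bases of the intron, and later by U6 snRNA. Introns of the major class nearly always begin with GT in the DNA and less often with GC. When a pair of sites lies close together, the spliceosome chooses between overlapping or neighbouring sequences, and the choice adds or removes a short stretch of the exon. In a coding region a stretch that is a multiple of 3 bases keeps the reading frame. The form spliced at the site nearer the downstream exon is called the long form here, and the form spliced at the other site the short form.

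The sequences of 9 tested pairs show how close the competing sites lie. Each is given 5′ to 3′ on the gene's strand from the RefSeq dm6 genome, and the capitals are the first 2 intron bases of each site, short-form site first. They were chosen from the pairs described below whose sites both fit in a window of at most 30 bases.
up, chrX:13596366-13596384, minus strand: gcaggcGTgGTaattatat
Bacc, chr2L:2752832-2752850, plus strand: atatcgGTgGTtagcaaac
REPTOR-BP, chr2L:10264880-10264899, plus strand: gagcgcGTcgGTatataact
KdelR, chr2L:10426998-10427018, plus strand: attttgGTaacGTatgcagct
Nplp2, chr3L:13356841-13356862, plus strand: aagaagGTtgagGTaattataa
Moe, chrX:8874493-8874517, minus strand: aagcagGTcattgcgGTacactttt
CtBP, chr3R:13021302-13021326, plus strand: tacaatGTatttcaaGTaagagatt
Rab30, chr2L:7032301-7032327, minus strand: ccccagGTgagccacagGTgagaggcg
Npc1a, chr2L:10217331-10217358, minus strand: cacaagGTtcgtccatggGTgagtttta

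In Fer2LCH and ATPsynD the sites lie farther apart, and each site is shown alone because these 2 genes return in the comparison of the groups.
Fer2LCH, short-form site, chr3R:30388897-30388911, plus strand: ctggaaGTgagtttt
Fer2LCH, long-form site, chr3R:30388928-30388942, plus strand: tactttGTgagtgtt
ATPsynD, short-form site, chr3R:19095016-19095030, plus strand: caaagtGTaagtgtt
ATPsynD, long-form site, chr3R:19095069-19095083, plus strand: atataaGTacgttac

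The 1461 close pairs held 1750353 and 1661848 read pairs in the mutant libraries and 1601031 and 1467288 in the wild type libraries. Few of these tell the forms apart. Read pairs specific to 1 form numbered 243621 and 236799 in mutants and 234382 and 215551 in wild type, with a median per close pair of 20 and 22 in mutants and 18 and 15 in wild type. Accordingly 518 close pairs had at least 20 specific read pairs in every library, and 59 of these also had a mean of at least 10 for each form and were tested. Of the untested close pairs, 943 had fewer than 20 specific read pairs in some library, 459 had too few of 1 form, and 25 of the 943 had none in any library. Some pairs share an end: 276 close pairs shared their downstream exon start with another, and the 59 tested pairs lay at 56 such sites. Of the 1461 close pairs, 1199 were matched to introns of 943 annotated genes.

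The distance between the sites was most often 4 bases. This spacing held 238 of the 1461 close pairs (16.3%), against 66 at 6 bases, 53 at 3 bases, 44 at 1 base, 42 at 5 bases and 38 at 2 bases. The median distance was 14 bases and the median intron of the long form was 88 bases. In all 180 matched pairs at 4 bases the long-form intron began with GT, while the short-form intron began with GT in 157 and with GC in 23. The sequence GTNNGT, which places another GT 4 bases into the intron, begins 59.4% of the 59717 annotated introns used (35466, gene strand only). Among the 4-base pairs only 34 had both sites annotated (18.9%), against 72.1% at 6 bases and 55.6% at 3 bases.

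**Figure D1:**
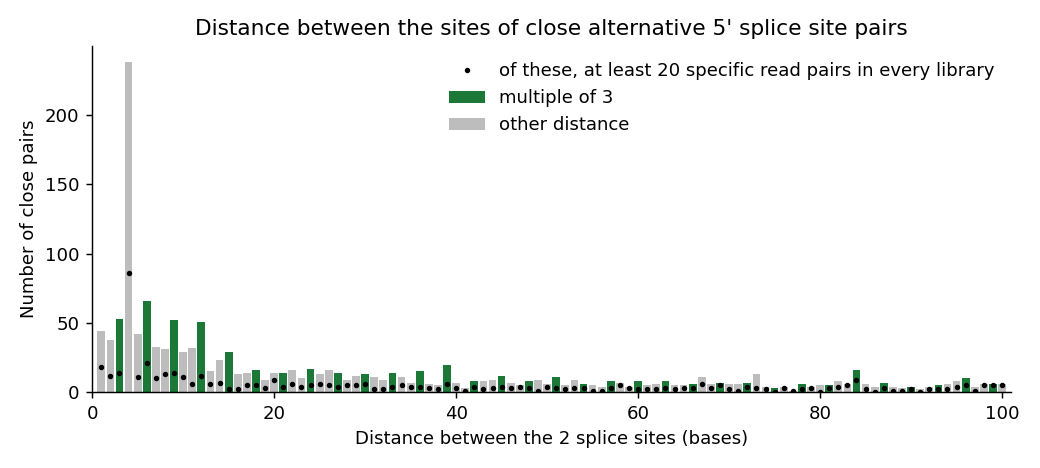
Number of close pairs (bars, y axis) at each distance in bases between the sites (x axis), with multiples of 3 in green and other distances in grey; dots are the pairs with at least 20 specific read pairs in every library. The bar at 4 bases (238 pairs) stands far above its neighbours, and the bars at 6, 9 and 12 bases stand above those on either side of them.

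Annotation of both sites went with the reading frame. Over all close pairs 35.9% of distances were multiples of 3, and over distant pairs 35.4%. Within coding sequence 43.9% of 751 close pairs had a distance that is a multiple of 3, and where both sites were annotated this was 86.4% of 242. In 5′ untranslated regions it was 28.2% of 373 close pairs, and 31.6% of the 171 with both sites annotated. The annotated coding pairs are therefore mostly alternatives that add or remove whole codons. Restricting to pairs that wild type larvae used in a mixed way (a mean long-form fraction between 0.1 and 0.9) gave 69.2% of 39 coding pairs and 29.6% of 27 pairs in 5′ untranslated regions.

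Most close pairs with enough specific reads were used almost exclusively at 1 site, in both groups. The measure is the authors' long-form fraction, a posterior mean from MISO. Among the 518 pairs with enough specific reads, the long-form fraction was at most 0.1 in 213 pairs, at least 0.9 in 201 and between these in 104 in the mutants, and at most 0.1 in 216, at least 0.9 in 216 and between these in 86 in wild type. The 86 pairs at 4 bases leaned to the short form, with 65 pairs at most 0.1 and 5 mixed in mutants, and 64 at most 0.1 and 6 mixed in wild type. Their median long-form fraction was 0.02 and 0.025 in the mutants and 0.02 and 0.03 in wild type. At 5 bases the preference was the other way, with medians of 0.96 and 0.95 in mutants and 0.96 and 0.94 in wild type over 11 pairs. The long form was also preferred at 1, 2 and 3 bases, with medians of 0.975 to 0.985 over 18, 12 and 14 pairs. At 6 bases the medians were 0.72 to 0.76, with 10 of 21 pairs at most 0.1 and 6 at least 0.9 in each group.

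Site use went with the strength of the sequences. A donor score, in bits, was built from the base frequencies at the last 3 exon and first 6 intron bases of annotated introns, so annotated sites contributed to their own score. In 376 pairs with enough reads and GT at both sites, the score of the long-form site minus that of the short-form site correlated with the long-form fraction (Pearson 0.676 and Spearman 0.698 in mutants, 0.677 and 0.728 in wild type, across pairs, which share libraries and base composition). The site with the higher score had more than 0.5 of the use in 296 pairs in mutants (78.7%) and 297 in wild type (79.0%). Where the scores differed by at least 2 bits this was 233 of 268 in each group (86.9%). At 4 bases it was 55 of 58 in each group (94.8%), at 1 to 12 bases 86.9% in each group, and at 13 to 100 bases 73.1% in mutants and 73.5% in wild type. Among the 72 pairs of mixed use in wild type, the score gave the preferred site in 37 in mutants and 38 in wild type. The printed sequences show both outcomes. In up, the upstream site scored -1.75 and the downstream site 6.19, and the downstream site was the main one, while in KdelR, whose protein returns escaped proteins to the endoplasmic reticulum, the main site was the upstream one with a score of 1.92 against 4.32 downstream.

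**Figure D2:**
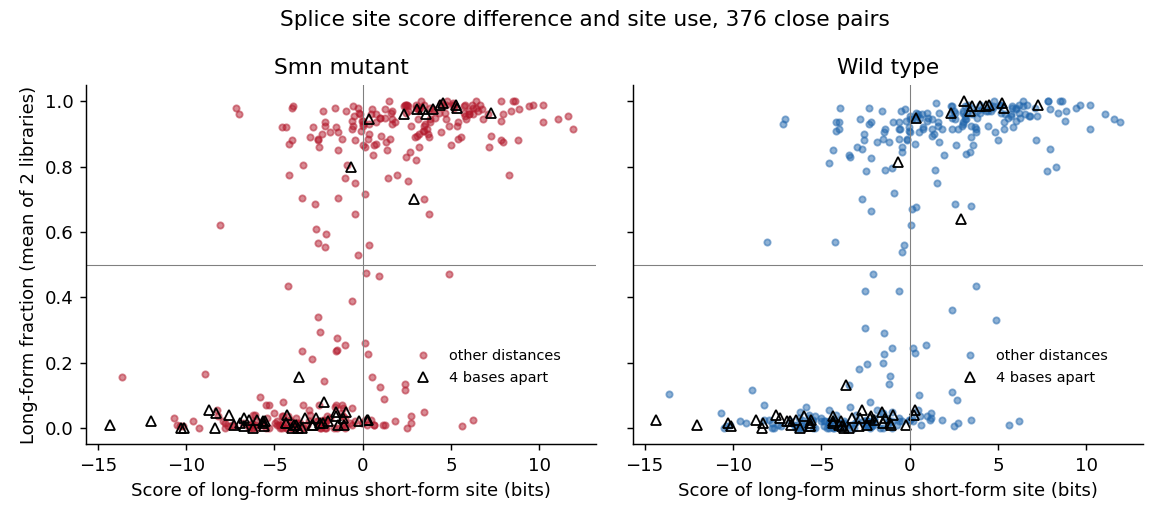
Mean long-form fraction of each group (y axis) against the score of the long-form site minus that of the short-form site in bits (x axis) for 376 close pairs, Smn mutant left and wild type right, with pairs at 4 bases as open triangles. Points gather at the lower left and upper right in both panels, and the higher-scoring site was the main one in 78.7% of pairs in mutants and 79.0% in wild type.

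Between the groups, few of the tested close pairs passed the limma threshold, and those that did used the long form more in mutants. The tested value is the log2 ratio of long-specific to short-specific read pairs, with 0.5 added to each. It is not corrected for the number of read positions of each form and so differs in level from the fraction. In limma, with Benjamini-Hochberg adjustment over all 433 tested alternative 5′ splice site events, 3 of 59 close pairs had an adjusted p under 0.05, against 28 of 433 events (6.47%). All 3 had the long form higher, a direction called in 24 of the 433 events (5.54%). At an unadjusted p under 0.05 there were 14 of 59 close pairs, against 137 of 433 events (31.6%). The close pairs were thus called at about the share of all events. In bulk RNA from whole larvae, fewer cells of a type and less RNA per cell cannot be told apart.

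Direction leaned to the long form, as it did in all tested events. The median log2 ratio over the 59 pairs was 0.76 and 1.15 in mutants and 0.83 and 0.51 in wild type, so 1 mutant library lay between the wild type libraries. The fitted log2 change (mutant minus wild type) was above 0 in 39 of 59 close pairs (66.1%), against 305 of 433 events (70.4%), and its median was 0.24 in close pairs, 0.53 in distant pairs and 0.51 in all events. Without Smn mutant replicate 2 the medians were 0.50 in close and 0.63 in distant pairs, and without wild type replicate 2 they were 0.42 and 0.67. Both mutants had a higher ratio than either wild type library in 25 of 59 close pairs, against 50.8% of all tested events, and a lower one in 8, against 12.7%. For the authors' long-form fraction the counts were 21 above, against 31.4% of all tested events, and 10 below, against 12.5%. The median size of the difference in fraction was 0.04 in close pairs and 0.02 in all events.

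Among the close pairs, the lean to the long form lay in the wider ones, whose median was near that of all tested events. Of 25 pairs with sites 1 to 12 bases apart, 12 had a log2 change above 0, the median change was -0.01, and limma called 0, with 4 at an unadjusted p under 0.05. Of 34 pairs at 13 to 100 bases, 27 had a log2 change above 0, the median was 0.52, and 3 were called. The boundary at 12 bases was chosen with the values known, and the difference between these 2 sets was not tested.

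**Figure D3:**
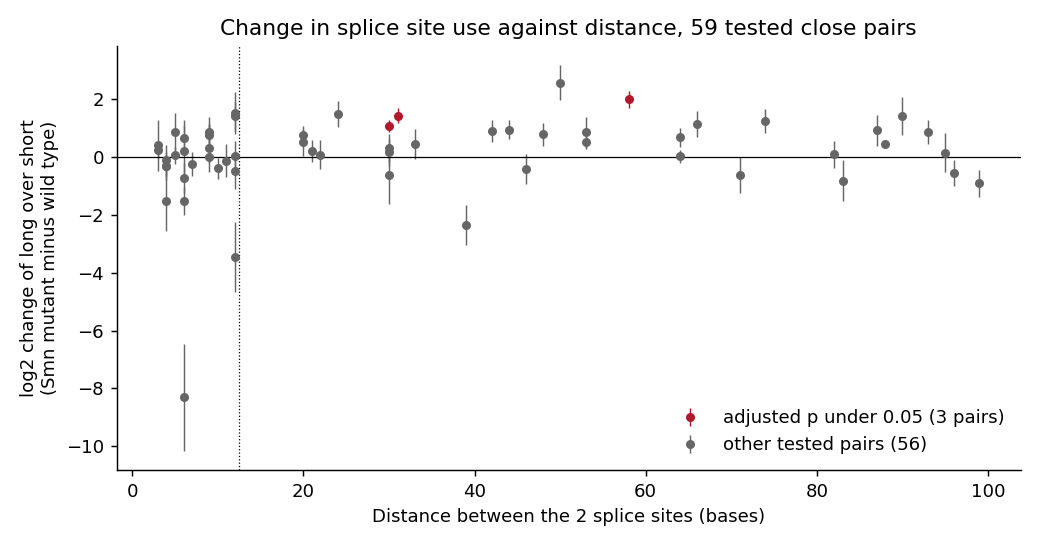
Fitted log2 change of long over short read pairs, Smn mutant minus wild type (y axis, points with standard error bars), against the distance between the sites in bases (x axis) for the 59 tested close pairs, with the 3 pairs at an adjusted p under 0.05 in red and a dotted line after 12 bases. To the left of the line 12 of 25 points lie above 0, and to the right 27 of 34, against 70.4% of all 433 tested events.

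Fer2LCH, the light chain of secreted ferritin that stores and carries iron, was 1 of the 3 called pairs. Its sites lie 31 bases apart in the 5′ untranslated region, at dm3 positions 26214624 and 26214655 on chromosome 3R, and the annotation holds only the short-form site. Long-specific read pairs numbered 131 and 184 in mutants beside 1139 and 1621 short-specific ones, and 66 and 37 in wild type beside 1273 and 1273. The long-form fraction was 0.07 and 0.07 in mutants and 0.03 and 0.02 in wild type, so the groups did not overlap and the long form was the minor one throughout. The log2 change was 1.43 (SE 0.26, limma adjusted p = 0.0496). Of all read pairs at these sites, 25.0% and 20.6% in mutants and 13.7% and 12.1% in wild type fitted neither form. The retained fraction of the same intron was 0.02 and 0.02 in mutants and 0.00 and 0.00 in wild type. The part of either in the change was not tested.

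CG44242 also rose in mutants. Its sites lie 30 bases apart in coding sequence, at 12084077 and 12084107 on 2R (dm3), both are annotated, and the short-form intron begins with GC. The long form had 251 and 259 specific read pairs in mutants beside 61 and 61 short-specific ones, and 222 and 149 in wild type beside 107 and 81. Its fraction was 0.66 and 0.66 in mutants and 0.53 and 0.49 in wild type, with both mutants above both wild type libraries. The log2 change was 1.08 (SE 0.21, limma adjusted p = 0.0496). Read pairs fitting neither form made up 4.27% and 5.06% in mutants and 1.44% and 2.42% in wild type. The retained fraction of this intron was 0.05 and 0.06 in mutants and 0.01 and 0.01 in wild type. The part of either in the change was not tested. The added 30 bases are a whole number of codons.

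The last called pair has no matched gene. Its sites lie 58 bases apart at 3692471 and 3692413 on 2L (dm3, minus strand). Long-specific read pairs were few, 30 and 37 in mutants beside 895 and 973 short-specific ones, and 18 and 38 in wild type beside 1779 and 4491. Its long-form fraction was 0.02 and 0.02 in mutants and 0.01 and 0.00 in wild type. The log2 change was 2.00 (SE 0.28, limma adjusted p = 0.0384), and the retained fraction of the intron was 0.02 and 0.02 in mutants and 0.01 and 0.00 in wild type. Read pairs fitting neither form made up 1.56% and 1.16% in mutants and 0.67% and 0.35% in wild type. The part of retention or of these read pairs in the change was not tested. The 3 calls depended on the libraries and on the fit. The adjusted p without Smn mutant replicate 1, Smn mutant replicate 2, wild type replicate 1 and wild type replicate 2 in turn was 0.0369, 0.0832, 0.0804 and 0.0803 for Fer2LCH, 0.127, 0.160, 0.113 and 0.108 for CG44242, and 0.0415, 0.0885, 0.0963 and 0.108 for the 2L pair. With no minimum per form, without weights and with the log2 odds of the authors' fraction, the limma adjusted p was 0.161, 0.119 and 0.133 for Fer2LCH, 0.0901, 0.137 and 0.0708 for CG44242, and 0.0901, 0.0713 and 0.214 for the 2L pair.

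The authors' pairwise Bayes factors gave other pairs. The criterion was a difference of 0.2 or more, supported by a Bayes factor of 10 or more, with 1 direction shared by the 4 pairings of a mutant and a wild type library. By it 1 of 1461 close pairs qualified, against 13 of 3120 events (0.417%). Single pairings alone gave 11 to 19 of the 1461 close pairs, and their share over all events was not counted. The 1 pair lies on X (dm3 13229993 and 13229963, minus strand, 30 bases apart, no matched gene), and its long-form fraction was 0.60 and 0.63 in mutants and 0.90 and 0.98 in wild type. Its specific read pairs did not separate the groups in this way, with 860 and 766 long beside 39 and 3 short in mutants, and 1985 and 3075 long beside 68 and 13 short in wild type (log2 change -0.63, SE 1.00, limma adjusted p = 0.701). Of all its read pairs, 52.6% and 52% in mutants and 45.0% and 45.7% in wild type fitted neither form, and the retained fraction of its intron was 0.99 and 0.99 in mutants and 0.96 and 0.97 in wild type. At a difference of at least 0.1, 5 close pairs qualified, against 23 of 3120 events (0.737%), and the 4 added ones had the long form higher in mutants.

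Of those 4, CG44242 is described above. ATPsynD, a subunit of the mitochondrial ATP synthase, has sites 53 bases apart in the 5′ untranslated region (3R, dm3 14920743 and 14920796), both annotated. Its long-form fraction was 0.56 and 0.57 in mutants and 0.44 and 0.40 in wild type, which is 0.565 ± 0.00707 and 0.420 ± 0.0283 (SD, n = 2 each). Specific read pairs were 692 and 676 long beside 88 and 91 short in mutants, and 358 and 102 long beside 62 and 24 short in wild type. Both measures kept the groups apart, and the log2 change was 0.53 (SE 0.24, limma adjusted p = 0.199). CG17508 (2R, 53 bases, neither site annotated) had a long-form fraction of 0.45 and 0.48 in mutants and 0.25 and 0.26 in wild type, but its short form had only 11 and 11 specific read pairs in mutants and 2 and 16 in wild type (log2 change 0.85, SE 0.53, limma adjusted p = 0.310, and 0.0220 with the log2 odds of the authors' fraction). The remaining pair, on 2R at 16151917 and 16151941 (dm3, 24 bases, no matched gene), had a fraction of 0.89 and 0.83 in mutants and 0.61 and 0.67 in wild type (log2 change 1.48, SE 0.45, limma adjusted p = 0.0949). Its log2 change kept its direction with each library left out in turn, in fits that have 1 library in a group. Short-specific read pairs numbered 31 and 131 in mutants and 201 and 291 in wild type. The retained fraction of its intron was 0.41 and 0.45 in mutants and 0.27 and 0.30 in wild type, and its part in the difference was not tested. Another tested pair shares its short-form site and downstream exon start, with the long-form site at 16151937. There the fractions overlapped, with 0.99 and 0.95 in mutants and 0.96 and 0.95 in wild type.

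**Figure D4:**
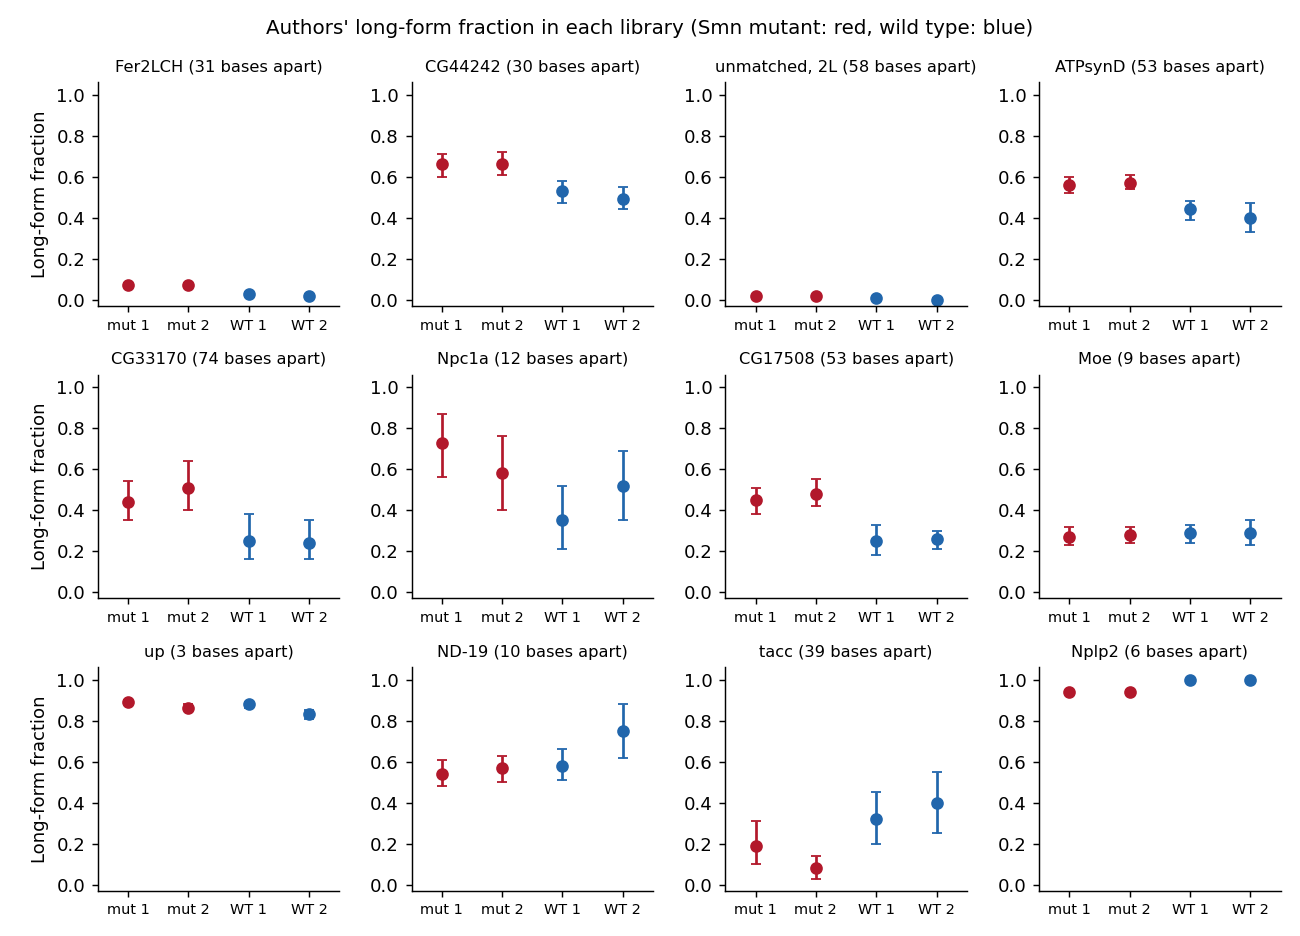
The authors' long-form fraction (y axis, points) with the bounds of its interval (bars) in each library, Smn mutant in red left of wild type in blue, for 12 tested close pairs. In Fer2LCH, CG44242, ATPsynD, CG33170 and CG17508 both mutants lie above both wild type libraries, in tacc and Nplp2 both lie below, and in up the groups overlap.

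The other large differences in fraction without overlap did not pass the limma threshold. CG33170 (74 bases apart) had a long-form fraction of 0.44 and 0.51 in mutants and 0.25 and 0.24 in wild type, from 19 to 32 short-specific read pairs per library (log2 change 1.24, SE 0.41, limma adjusted p = 0.114). Most of its read pairs fitted neither form, 78.1% and 82.8% in mutants and 86.7% and 88.8% in wild type, and their part was not tested. Npc1a, which moves sterols out of late endosomes, had 0.73 and 0.58 in mutants and 0.35 and 0.52 in wild type, so the groups separated only narrowly (log2 change 1.53, SE 0.72). In the opposite direction, tacc, a centrosomal microtubule protein, had 0.19 and 0.08 in mutants and 0.32 and 0.40 in wild type, from 6 to 23 long-specific read pairs per library (log2 change -2.35, SE 0.69, limma adjusted p = 0.0900). The retained fraction of the same tacc intron was 0.65 and 0.54 in mutants and 0.66 and 0.76 in wild type, and its part in the difference was not tested. ND-19, a subunit of mitochondrial complex I with sites 10 bases apart in its 5′ untranslated region, had 0.54 and 0.57 in mutants and 0.58 and 0.75 in wild type, a gap of 0.01 between the nearest libraries (log2 change -0.39, SE 0.35). The retained fraction of the ND-19 intron was 0.07 and 0.09 in mutants and 0.02 and 0.02 in wild type, and its part in the difference was not tested. The pair at eIF5, a translation initiation factor whose region also holds CG46312, had 0.68 and 0.73 in mutants and 0.83 and 0.75 in wild type (71 bases, log2 change -0.61, SE 0.62).

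Of the 5 deepest pairs with a fraction between 0.2 and 0.8 in every library, ATPsynD, CG44242, CG17508 and ND-19 are given above, and Moe is the remaining one. The groups did not overlap in fraction in any of the 5, though the gap in Moe is at the rounding of 0.01. Over all 433 tested events both mutants lay above both wild type libraries in 31.4% and below in 12.5%. In CG17508 the log2 ratio of specific read pairs did overlap, with 3.74 and 3.74 in mutants and 3.83 and 2.73 in wild type. In Moe it also overlapped, with -1.03 and -1.01 in mutants and -0.96 and -1.11 in wild type. Moe encodes Moesin, which ties the actin cortex to the membrane, and its sites lie 9 bases apart in coding sequence. The long-form fraction was 0.27 and 0.28 in mutants and 0.29 and 0.29 in wild type, from 118 and 150 long beside 241 and 303 short read pairs in mutants, and 113 and 58 long beside 220 and 126 short in wild type. The 4 libraries thus differed by at most 0.02, and the log2 change was -0.01 (SE 0.18). In KdelR (5 bases) the long-form fraction was 0.12 and 0.11 in mutants and 0.11 and 0.11 in wild type (log2 change 0.06, SE 0.31). CtBP, a transcriptional corepressor with sites 9 bases apart in coding sequence, had 0.41 and 0.53 in mutants and 0.38 and 0.28 in wild type, where 1 library of each group came within 0.03 of the other (log2 change 0.75, SE 0.41, limma adjusted p = 0.264). Rab30, a small GTPase of the Golgi whose sites 11 bases apart scored almost alike (9.96 upstream, 9.67 downstream), had 0.44 and 0.62 in mutants and 0.58 and 0.54 in wild type, which overlap (log2 change -0.12, SE 0.56). KdelR, CtBP and Rab30 were added after their values were seen.

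The tested pairs with the nearest sites, 3 or 4 bases apart, were up, Bacc, eEF5, REPTOR-BP, an X pair without a matched gene and Vamp7, the last having the fewest specific read pairs of those at 4 bases. In up, which encodes muscle troponin T, sites 3 bases apart in coding sequence gave a long-form fraction of 0.89 and 0.86 in mutants and 0.88 and 0.83 in wild type. This rested on 3734 and 1926 long beside 422 and 272 short read pairs in mutants, and 1965 and 885 long beside 250 and 159 short in wild type, and the groups overlap (log2 change 0.24, SE 0.20). Bacc (3 bases, 5′ untranslated region) had 0.79 and 0.98 in mutants and 0.68 and 0.82 in wild type, with overlapping groups (log2 change 0.40, SE 0.88). In eEF5, a translation factor that helps ribosomes through stalling sequences, sites 4 bases apart gave 0.95 and 0.94 in mutants and 0.95 and 0.95 in wild type (log2 change -0.30, SE 0.14, limma adjusted p = 0.210). REPTOR-BP, a transcription factor partner acting downstream of Tor, had 0.68 and 0.72 in mutants and 0.54 and 0.74 in wild type at 4 bases, and the wild type libraries enclosed the mutants (log2 change -0.11, SE 0.54). The X pair (dm3 13229993 and 13229989, sharing its upstream site with the X pair above) had 0.18 and 0.44 in mutants and 0.62 and 0.86 in wild type. Its specific read pairs again did not follow the fraction, with 35 long beside 33 short and 68 beside 0 in mutants, and 198 beside 64 and 198 beside 1 in wild type (log2 change -1.50, SE 1.05). Vamp7, a vesicle fusion protein, had 0.21 and 0.17 in mutants and 0.18 and 0.26 in wild type, which overlap (log2 change -0.31, SE 0.47). It was added after its values were seen.

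Nplp2, which encodes a neuropeptide-like precursor, had read pairs of the short form in both mutant libraries and in neither wild type library, and was singled out after its values were seen. The sites lie 6 bases apart in coding sequence (3L, dm3 13349946 and 13349952), and only the long-form site, which scored 7.84 against 0.00 for the other, is annotated. Short-specific read pairs numbered 529 and 471 in mutants beside 8933 and 8470 long-specific ones, and 0 and 0 in wild type beside 12605 and 601. The short share was 5.59% (Clopper-Pearson 95% interval 5.14 to 6.07) and 5.27% (4.81 to 5.75) in mutants. In wild type, 0 of 12605 allows a share of up to 0.0238% and 0 of 601 up to 0.499%, taking 3 read pairs per library as the limit of a count of 0. Intervals and limits cover counting error only, since read pairs are not independent molecules. The share in mutants was 235-fold and 221-fold the limit of wild type replicate 1, and 11.2-fold and 10.6-fold that of replicate 2. These folds use the share itself in mutants and are not lower bounds. The upper ends of the Clopper-Pearson 95% intervals in wild type were 0.0293% and 0.612%. The pair met the minimum mean of 10 short-specific read pairs only through the mutants, so its limma result is no support for the difference. Limma gave an adjusted p of 0.0602, and its fitted change depends on the value added to the counts of 0. Whether the upstream site differs in sequence between the strains was not tested.

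Introns of tested close pairs were also listed as retained intron events in 54 of 59 cases. Their median retained fraction was 0.03 and 0.03 in mutants and 0.015 and 0.015 in wild type. It was higher in both mutants than in both wild type libraries for 21 introns and lower for 1, that of tacc. Over all 23758 retained intron events the medians were 0.07 and 0.07 in mutants and 0.06 and 0.06 in wild type, with 6383 higher and 2904 lower. Across the 54 pairs the change in retained fraction and the log2 change of the long form had a Pearson correlation of 0.20 and a Spearman correlation of 0.12, from the same libraries. At 13 to 100 bases the Pearson correlation was 0.40 and the Spearman correlation 0.27 over 31 introns, and at 1 to 12 bases they were 0.18 and 0.07 over 23. A read pair inside the stretch between the sites can come from unspliced RNA as well as from the long form, and the part of retention in the log2 changes was not tested.

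**Figure D5:**
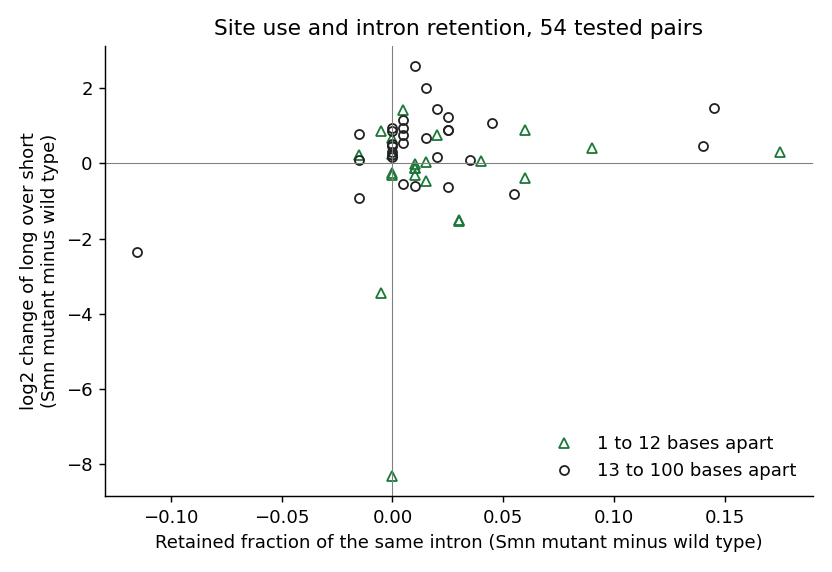
Log2 change of long over short read pairs (y axis) against the change in retained fraction of the same intron (x axis), both Smn mutant minus wild type, for 54 tested pairs, with 1 to 12 bases as triangles and 13 to 100 bases as circles. Most points lie near 0 on the x axis, and the lowest circle at the left is tacc.

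The gene lists of splicing, minor introns, muscle and growth signalling held 1 tested close pair, that of up, which did not pass. Close pairs lay in 8 of 41 splicing regulators, 3 of 16 genes with minor introns, 4 of 30 sarcomere genes and 3 of 18 insulin and Tor genes. These shares were not compared with that of all genes. No close pair lay in genes of the U1 snRNP and snRNP assembly or of the ecdysone response (0 of each). Splicing regulators held 9 in 8 genes, 4 of them with enough specific reads and 0 tested. In qkr58E-1, an RNA-binding protein of the KH domain family, the long-form fraction was 0.83 and 0.81 in mutants and 0.91 and 0.96 in wild type, but at most 3 short-specific read pairs per library bear on it. Hrb27C differed in the other direction, with 0.96 and 0.97 in mutants and 0.95 and 0.93 in wild type, and the groups overlapped in sm (0.91 and 0.82 in mutants, 0.84 and 0.92 in wild type) and heph (0.89 and 0.95 in mutants, 0.82 and 0.95 in wild type). Genes with minor introns, which are spliced by the U12-type spliceosome, held 3 (BuGZ, Kcmf1 and Phb2), of which Kcmf1 had enough reads, with 0.96 and 0.94 in mutants and 0.97 and 0.98 in wild type and no short-specific read pair in any library. Sarcomere genes held 5, of which up was tested, as given above. Insulin and Tor signalling and the synapse held 4 each, none with enough specific reads (0).

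On both sides of the boundary of 100 bases the nearest tested pairs were mainly spliced to the short form. The tested pair nearest to it from inside was in eIF4H1, a translation initiation factor, with sites 99 bases apart and a long-form fraction of 0.06 and 0.08 in mutants and 0.11 and 0.16 in wild type. The nearest from outside was in His4r, which encodes histone H4, with sites 102 bases apart and 0.07 and 0.06 in mutants and 0.03 and 0.03 in wild type.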

How the data were processed

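Alignment was to dm3 with TopHat 2.0.8 (Bowtie2 2.1.0), and MISO 0.4.8 was then run by the authors on modENCODE events, 2 libraries at a time, as the deposited readme says. The deposited values, per the file headers, are, for each library, a posterior mean of the long-form fraction with an interval, rounded to 0.01, the read pairs of each compatibility class, and, for each pairing, a Bayes factor (a ratio of likelihoods) and the signed difference of the means, a score made by the authors. Use of strand in assigning reads is not given in the sources used here. Repeated values of a library were identical between files (0 differed).

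Groups came from the sample titles. The log2 ratio of specific read pairs, log2((long + 0.5)/(short + 0.5)), was modelled by group (limma 3.58.1, R 4.3.3) with counting-variance weights, moderated variances and adjustment over all 433 alternative 5′ splice site events having at least 20 specific read pairs in every library and a mean of at least 10 of each form. The fit was also run on simulated data. Their spread between libraries was set and not estimated from these libraries, so that run does not bear on the calls. With 2 libraries per group an exact two-sided permutation p cannot go below 0.33. Annotation and sequence are of dm6 (RefSeq genome, Ensembl release 115), and events were matched to introns by exon and intron lengths, with no coordinates converted.

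The members and gene lists were chosen with earlier results of these data known. Pairs named were those called, the 5 largest rises and 5 largest falls in fraction without overlap, the 5 deepest with a fraction between 0.2 and 0.8 in every library, the 5 with the nearest sites, tested members of the lists, and the nearest to 100 bases on each side. Alternatives were the added value, the minimum per form, no weights, the odds of the authors' fraction, a replicate block, a variance trend and leaving out each library.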

Additional observations from a re-analysis of the deposited data

How the results depend on the processing

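The number of close pairs called with limma, 3 of 59 in the values reported, was 4 of 59 with 1 added in place of 0.5. It was 3 of 93 with a minimum mean of 5 per form, and 4 of 33 with a minimum of 20. Over all tested events these counts were 28 of 433, 32 of 433, 30 of 605 and 46 of 245 in turn. With the log2 odds of the authors' fraction 4 close pairs were called, against 38 of 433 events. None of the 3 reported pairs was among them. The 4 were CG17508, RpL10 and RpL27 (sites 90 bases apart), with the long form higher in mutants, and Nplp2, with it lower, in a fit of values rounded to 0.01. RpL10 and RpL27 are named here after their values were seen. The number of close pairs called fell to 0 of 518 with no minimum per form (57 at an unadjusted p under 0.05, against 284 of 1579 events). It fell to 0 without weights (13 unadjusted, against 127 of 433 events) and 0 with the replicate block (12, against 122 of 433). With a variance trend on precision, an alternative chosen after seeing the data, it was 1, against 27 of 433 events. With the block the limma adjusted p of each of the 3 reported pairs was 0.102, and with the variance trend it was 0.0663 for Fer2LCH, 0.0715 for CG44242 and 0.0334 for the 2L pair. Each fit with 1 library left out has 1 library in a group, so only its median log2 change is given. Without Smn mutant replicates 1 and 2 in turn it was 0.31 and 0.50 in close pairs, and 0.42 and 0.60 in all tested events. Without wild type replicates 1 and 2 it was 0.26 and 0.42 in close pairs, and 0.51 and 0.63 in all tested events. None of the 3 reported calls held in all of these fits. The cause of the lost calls was not tested. The replicate numbers were shared by the groups, with a correlation of same-numbered deviations of 0.389 over 59 close pairs and 0.128 over 433 events, but 2 pairs do not establish that they mark a common source. The block also left 0 of the 433 events called. Close pairs called by the Bayes factor, 1 as reported, were 5 at a difference of at least 0.1, against 23 of 3120 events. They were 1 at a Bayes factor of at least 20, and 5 to 8 with 1 library left out. Leaving out a library means that fewer pairings have to agree, so under this looser criterion the count can only stay or rise. The share over all events was not counted at a Bayes factor of at least 20 or with a library left out. The median log2 change lay between 0.17 and 0.50 in every alternative.

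Over 23 named pairs and 263 alternatives, 221 kept direction and side of the threshold, 24 lost a call, 6 gained one and 12 reversed. The 24 were all of the 3 called pairs, and Nplp2 was called in 3 alternatives (limma adjusted p = 0.0486 with 1 added, 0.0419 with a minimum mean of 20, 0.000941 with the odds). Nplp2 entered these fits only through its short-specific read pairs in the mutants, so these calls are no support for its difference. The log2 change reversed for 6 pairs, none of them called. With 1 library left out it ranged from -6.77 to 5.32 for the X pair at 13229989, from -3.11 to 2.42 for that at 13229963, from -0.0606 to 0.0940 for Moe, from -0.0926 to 4.64 for Bacc, from -0.277 to 0.956 for REPTOR-BP and from -0.624 to 0.349 for Rab30. Reversal came without Smn mutant replicate 1 in both X pairs, REPTOR-BP (0.0441) and Rab30, without wild type replicate 1 in Moe and Bacc, and without wild type replicate 2 in REPTOR-BP. For Moe the change was also 0.0158 without weights and 0.00325 with the block, and for REPTOR-BP 0.346 without weights, 0.355 with the odds and 0.220 with the block. Depth limits most close pairs, since 943 of 1461 lacked 20 specific read pairs in some library.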
